A study of Mus musculus with 18 samples.

Results

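Heat shock proteins and their DNAJ partners were followed across the muscle transcriptomes of this series. The genes were taken from the deposited table by symbol: those starting with Hspa, Hspb, Hspd, Hspe or Hsph and a digit, with Hsp90, or with Dnaj. That gave 63 of the 12558 genes listed, all annotated as protein coding. They comprise 14 Hsp70 and Hsp110 genes, 3 Hsp90 genes, the 2 mitochondrial chaperonin genes, 7 small heat shock genes, and 4 DNAJA, 9 DNAJB and 24 DNAJC genes. Families were assigned by symbol alone, which counts Hspb11 among the small heat shock genes, and protein sequences were not examined. Every one of the 63 genes passed the filter on low values, and the lowest value of any of them in any library was 1.11 CPM, for Hspb11.

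The samples were skeletal muscle of mice kept for 10 weeks on their diets, as 6 groups of 3 libraries. Wild-type mice ate normal chow (the chow group) or a high-fat diet (HFD), each with plain water or with water that held a drug, AQ, whose full name the labels leave out. On HFD there were also mice transgenic for Nurr1 (Nurr1-mTg) and a separate group of wild-type transgenic controls, so that both arms of the transgene comparison carried the diet. The sources used here do not give which muscle was taken, what drives the transgene, or the age, sex and number of the mice behind a library. The labels call the libraries of a group biological replicates, and the p-values below measure only the spread between those libraries.

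Chaperones hold proteins in a state from which they can fold. HSP70 proteins grip exposed stretches of unfolded chain in cycles of ATP hydrolysis, and DNAJ proteins bring them their clients and start that hydrolysis. Small heat shock proteins bind unfolding proteins without ATP, HSP90 completes the folding of kinases and receptors, and the chaperonin HSP60 with its lid HSP10 encloses proteins of the mitochondrial matrix. When unfolded protein builds up, heat shock factor 1 (HSF1) binds repeated GAA units in promoters and raises the inducible members. In muscle the small heat shock proteins and BAG3 guard the Z-disc and the filaments around it.

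Values are CPM, read counts that the authors scaled to a common library size, from 10404895 to 16082994 reads per library. A single read was worth 0.0637 to 0.0924 CPM, so that low values rest on few reads. Differences were tested with limma on log2(CPM + 1) over all genes, with Benjamini-Hochberg adjusted p-values and a threshold of 0.05. The muscle markers were all 11 present and summed to between 143900 and 211400 CPM in every library, and Nr4a2, the gene of NURR1, lay at 18.8, 30.1 and 19.8 CPM in the transgenic libraries and at no more than 4.79 CPM elsewhere. HFD replicate 2 stood apart from the other libraries in several inducible chaperones, and the fold changes of those genes with diet, and with AQ on HFD, are given with and without it.

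The upstream sequences of members that stood apart in HFD replicate 2, and of the chaperonin pair, are shown so that the heat shock units in them can be compared. They come from RefSeq (GRCm38.p6). Promoter windows of 250 bases before to 50 bases after a start were at hand for 51 of the 63 genes, with 67 starts. None was at hand for Dnajc2, Dnajc5, Dnajc11, Dnajc12, Dnajc18, Dnajc30, Hspa8, Hspa9, Hspa13, Hspb2, Hsp90aa1 and Hsp90ab1. Each line runs 5′ to 3′ toward the gene start, and capitals mark the head-to-head or tail-to-tail pair of units (GAANNTTC or TTCNNGAA, each its own reverse complement). The stretches were cut where an annotated exon begins. For Dnaja4 this left 93 bases with 1 of the 2 pairs upstream of that start. The windows of the first starts of Dnaja4 and Dnajb4 held no pair and are not shown.
Hspa1a, chr17:34972157-34972306, minus strand: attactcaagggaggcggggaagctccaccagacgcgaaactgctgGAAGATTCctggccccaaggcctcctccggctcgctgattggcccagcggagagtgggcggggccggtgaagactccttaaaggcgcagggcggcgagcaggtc
Hspa1b, chr17:34959239-34959388, minus strand: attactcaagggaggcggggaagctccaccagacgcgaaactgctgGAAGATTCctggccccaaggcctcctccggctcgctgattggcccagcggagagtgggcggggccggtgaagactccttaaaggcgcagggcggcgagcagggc
Hspb1, chr5:135887769-135887918, plus strand: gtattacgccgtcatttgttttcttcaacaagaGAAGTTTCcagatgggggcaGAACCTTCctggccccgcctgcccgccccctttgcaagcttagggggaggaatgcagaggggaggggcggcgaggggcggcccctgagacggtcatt
Dnajb4 (second start), chr3:152193846-152193995, minus strand: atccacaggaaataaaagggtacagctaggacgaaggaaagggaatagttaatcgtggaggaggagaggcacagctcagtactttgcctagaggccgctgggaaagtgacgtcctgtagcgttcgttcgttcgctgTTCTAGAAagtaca
Dnaja4 (second start), chr9:54699414-54699506, plus strand: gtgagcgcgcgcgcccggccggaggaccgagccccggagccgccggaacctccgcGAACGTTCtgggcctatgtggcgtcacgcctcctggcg
Hspd1 and Hspe1 (between starts of both), chr1:55088053-55088082, plus strand: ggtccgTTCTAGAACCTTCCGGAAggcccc

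The pair of units was found in 17 of the 67 member windows (25.4%) and in 15.1% of all 32851 promoters in the RefSeq table. Windows of Dnajb1 and Hspb7 held none. A run of 3 units in alternating direction (GAA, TTC, GAA or TTC, GAA, TTC, with 2 free bases after each, so that it holds 2 overlapping pairs) was found for 4 of 51 genes (7.84%), which were Hspd1, Hspe1, Dnajb6 and Hsph1, and for 0.662% of all genes with a promoter. Hspd1 and Hspe1 are transcribed away from each other. The nearer of the 2 Hspd1 starts in RefSeq is 215 bases from the Hspe1 start. The other lies beyond it, and the exons of the genes overlap by 112 bases in GENCODE. Between the nearer Hspd1 start and the Hspe1 start, 3 overlapping pairs of units begin 89, 84 and 79 bases before the Hspe1 start. The ER stress element (CCAAT and CCACG with 9 free bases between them), also searched on both strands, was found for Hspa5, Hsp90b1 and Dnajc3, in 3 of 67 windows (4.48%) against 0.119% of all promoters. Hspa1a and Hspa1b were identical at 149 of the 150 bases shown. These matches are letters in a window and say nothing of whether a factor was bound.

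The highest levels per length of exon were those of small heat shock genes and the cytosolic Hsp90ab1, with mitochondrial and ER genes also among the first 10. On the scale of mean CPM per kb over all libraries, Hspb6, a small heat shock protein of muscle also called HSP20, led with 514. It was followed by Hsp90ab1, the constitutive cytosolic HSP90, at 382, by Hspb8, the small heat shock partner of BAG3, at 291, and by Hspb7, a small heat shock protein of heart and muscle, at 221. Hspa9, the HSP70 of the mitochondrial matrix, stood at 129. Dnaja2, a cytosolic HSP70 partner, lay at 84.7, Hspb2, a small heat shock protein of muscle, at 84.4, Hspa5, the HSP70 of the ER, at 45.3, Dnajb5 at 42.3, and Dnaja3, the matrix partner of Hspa9, at 40.6. The 10 genes of highest level thus included 4 of the 7 small heat shock genes. Genes known for heat induction were spread over this scale. Hspb1 stood at 32.8, Dnajb4 at 11.3, Dnajb1 at 2.87, Hspa1b at 2.85, Hspa1a at 2.77 and Hsp90aa1 at 2.65 CPM per kb, while the constitutive Hspa8 stood at 39.1.

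Levels of near-identical genes are uncertain, because the authors' counting could have split or dropped shared reads. Of the windows of 50 bases, the read length, in Hspa1a transcripts, 58.8% also occurred in Hspa1b, so the values of the pair are best read together. Windows shared with any other gene, on either strand, made up 71.4% of Hspa1l, mainly with its antisense gene Gm10501 (9.57% occurred in Hspa1a). They made up 50.1% of Hspb1 (its pseudogene Hsp25-ps1), 47.5% of Hsp90aa1, 42.1% of Hspd1 and 39.4% of Hspa8. Strand use is not given, so reads of overlapping genes on opposite strands cannot be told apart either. This concerns Hspa1l, of whose exon bases 71.9% overlap Gm10501, an overlap already counted in its shared windows. It also concerns Dnaja4 with Wdr61 (44.1%) and Hspb2 with the alpha B-crystallin gene Cryab (30.2%).

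Hspa1a and Hspa1b, the inducible HSP70 genes, were high in 1 library of 18. HFD replicates 1, 2 and 3 had 6.98, 84.2 and 3.07 CPM of Hspa1a. The chow libraries had 5.63, 9.18 and 2.05 CPM, those on chow with AQ 3.31, 6.00 and 1.61 CPM, and those on HFD with AQ 2.17, 2.52 and 2.31 CPM. Transgenic controls and transgenic mice, all on HFD, stayed between 2.00 and 4.45 CPM. HFD replicate 2 thus held 9.16 times the Hspa1a of the next library, which was chow replicate 2. For Hspa1b it held 92.4 CPM, 12 times the next library, chow with AQ replicate 2 at 7.67 CPM. The other HFD libraries were at 5.60 and 3.01 CPM of Hspa1b, within the range of the chow libraries (1.28 to 6.89 CPM).

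**Figure D1:**
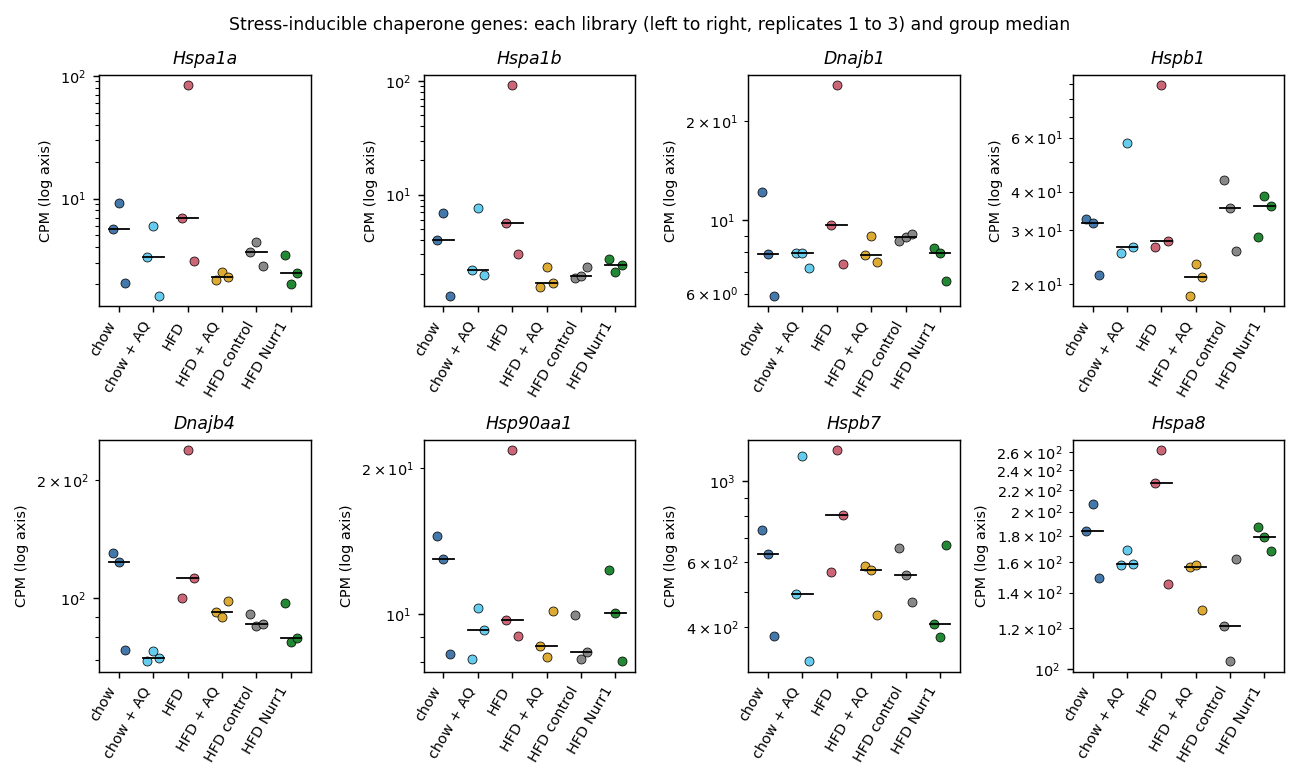
CPM of 8 stress-inducible or variable chaperone genes on log axes, with a point per library (replicates 1 to 3 from left to right) and a line for the group median. HFD replicate 2 is the highest point of every panel, at 84.2 CPM for Hspa1a and 25.7 CPM for Dnajb1, and chow with AQ replicate 2 is next for Hspa1b, Hspb1 and Hspb7.

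The same library was highest for Dnajb1, Dnajb4, Hsp90aa1 and Hspa8, but not for other cytosolic chaperones such as Hsph1 and Dnaja1, which were highest in chow replicate 1. Dnajb1, the DNAJ protein that works with inducible HSP70 in dissolving aggregates, was at 9.68, 25.7 and 7.35 CPM on HFD and at 12.2, 7.93 and 5.91 CPM on chow. With AQ it lay between 7.18 and 8.96 CPM on either diet. Dnajb4, a related heat-inducible gene, was at 100.1, 238 and 113 CPM on HFD and 130.3, 124 and 74.0 CPM on chow. HFD replicate 2 exceeded the next library 2.11-fold for Dnajb1 and 1.82-fold for Dnajb4. It also led for Hsp90aa1, the inducible cytosolic HSP90, with 21.7 CPM against 14.5 CPM in the next library, chow replicate 1. Hspa8, the constitutive cytosolic HSP70, was at 226, 262 and 145 CPM on HFD, at 183, 207 and 149 CPM on chow and between 129.5 and 169 CPM with AQ, so that HFD replicate 2 stood 1.16-fold above the next library.

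HFD replicate 2 was the highest library for 18 of the 63 genes (28.6%) and for 7.69% of all genes in the table. It exceeded the next library at least 2-fold for 3 members (4.76%), Hspa1a, Hspa1b and Dnajb1, and for 15 of all genes (0.119%). At 1.5-fold or more, 5 members (7.94%) and 0.271% of all genes did so, Dnajb4 and Hspb1 being the others. The median deviation of the 63 genes from the mean of each gene over 18 libraries was 0.136 on the log2 scale there, the highest of any library, the next being chow replicate 1 at 0.104. For a list of 13 cytosolic members called stress-inducible here it was 0.833. That list holds Hspa1a, Hspa1b, Hspa4l, Hspa8, Hsph1, Hsp90aa1, Hsp90ab1, Hspb1, Hspb8, Dnaja1, Dnaja4, Dnajb1 and Dnajb4, among them the constitutive Hspa8 and Hsp90ab1, and 5 of the 13 were highest in another library. The deviation was 0.211 for the 10 mitochondrial members and 0.0866 for the 11 of the ER. Genes that are not members had a median of -0.00365 there. HFD replicate 2 was singled out by these same values, and the list was drawn up with earlier results known. The shares describe that library and are no independent test.

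Immediate early genes, which tissue handling and stimulation raise within minutes, were also high in that library. Their 16 genes summed to 811 CPM in HFD replicate 2, to 379 and 268 CPM in replicates 1 and 3, and to between 195.9 and 478 CPM in the libraries outside that group. Fos was at 16.6, 47.0 and 3.41 CPM in the HFD libraries. Fkbp5, a target of the glucocorticoid receptor and an HSP90 partner, was at 150.3, 201 and 45.7 CPM in them, and at 30.2 to 67.3 CPM in all groups other than chow and HFD. Transgenic control replicate 1 had the next highest immediate early sum, 478 CPM, and 3.66 CPM of Hspa1a. The part of immediate early genes in the chaperone values was not tested.

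**Figure D2:**
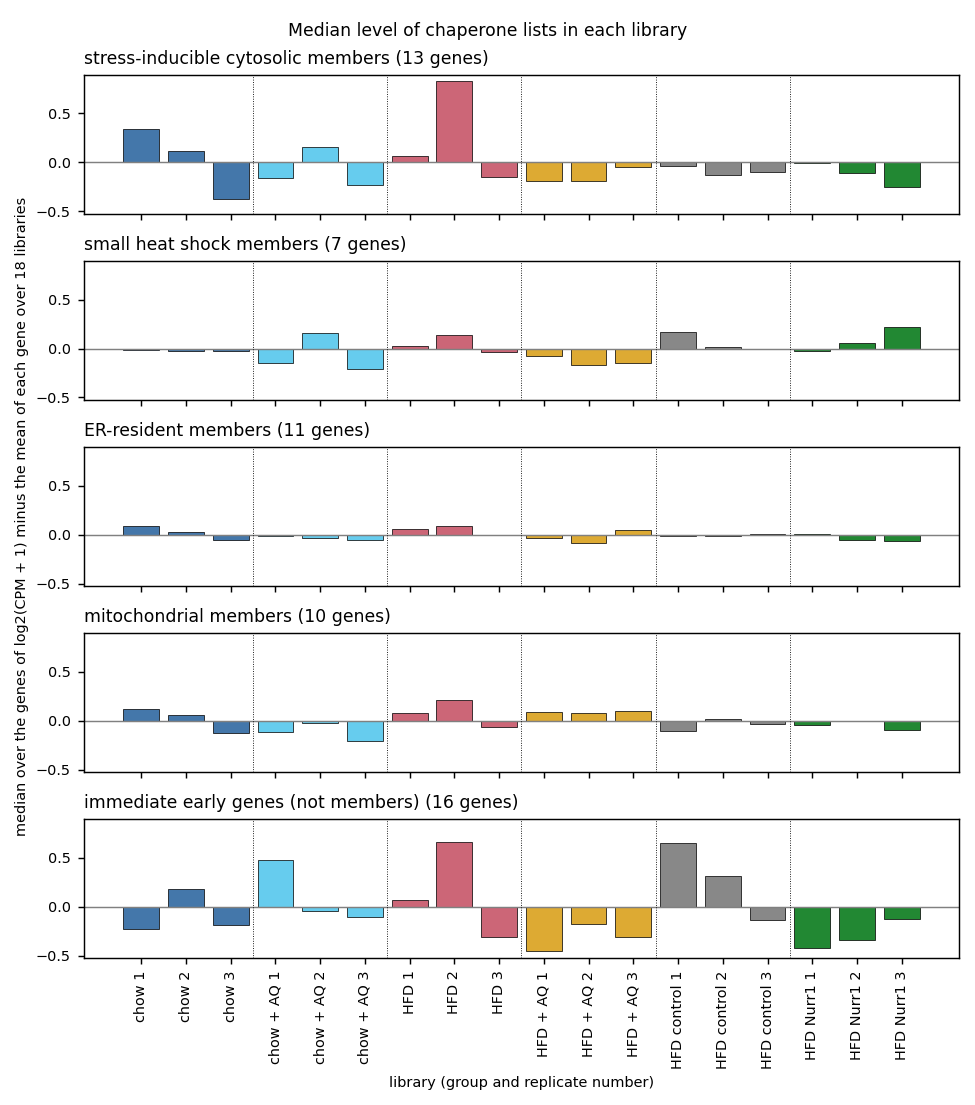
Median, over the genes of 5 lists, of log2(CPM + 1) minus the mean of each gene over 18 libraries, with a bar per library and zero as a grey line. The stress-inducible list reaches 0.833 and the immediate early genes 0.663 in HFD replicate 2, in transgenic control replicate 1 they stand at -0.0329 and 0.65, while the ER-resident list stays between -0.0868 and 0.0866 in all libraries.

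Hspb7 and Hspb1 were high in another library besides, which the family of 7 small heat shock genes did not share throughout. Chow with AQ replicates 1, 2 and 3 had 492, 1169.9 and 324 CPM of Hspb7. HFD had 564, 1209 and 806 CPM, chow 734, 634 and 378 CPM, and HFD with AQ 586, 571 and 431.5 CPM. Groups overlapped widely, and the 2 highest libraries came from different groups. Hspb1, the small heat shock protein HSP25 of the cytosol, was at 25.3, 57.6 and 26.4 CPM on chow with AQ and at 26.3, 89.1 and 27.6 CPM on HFD, and again the second library of each group was highest. In chow with AQ replicate 2 Hspb2 was at 74.96 CPM and Hspb8 at 627.5 CPM, below their highest libraries at 86.07 and 695.8 CPM, and the family's median deviation was 0.158, against 0.221 in transgenic replicate 3. The same 2 libraries were the highest pair for Hspa1b, Hspb7, Hspb1 and Dnaja4, a count of 4 of 63 members (6.35%) against 0.653% of all genes, which was made after the values were seen. Cryab, which is no member but belongs to the protein family of Hspb1, was at 1423 CPM in HFD replicate 2 and 1286 CPM in chow with AQ replicate 2. In the other libraries it was at no more than 874 CPM.

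Libraries of the same group differed little for most chaperones. The median over the 63 genes of the SD of log2(CPM + 1) between libraries of a group was 0.137, against 0.151 over the whole table. Hspa1b (1.13), Hspa1a (1.06), Hspb7 (0.54), Hspb1 (0.53) and Dnajb1 (0.42) had the largest SD, followed by Hsp90aa1 (0.35), Dnajb4 (0.34), Hspb6 (0.33), Hspa4l (0.33) and Dnaja4 (0.30). Leaving out HFD replicate 2 brought Hspa1b and Hspa1a to 0.56 each and left Hspb7 at 0.52. Dnajc18, a membrane DNAJ protein of the ER, had the smallest SD among genes of at least 20 CPM, 0.06, and ran from 41.7 to 48.8 CPM over all 18 libraries.

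**Figure D3:**
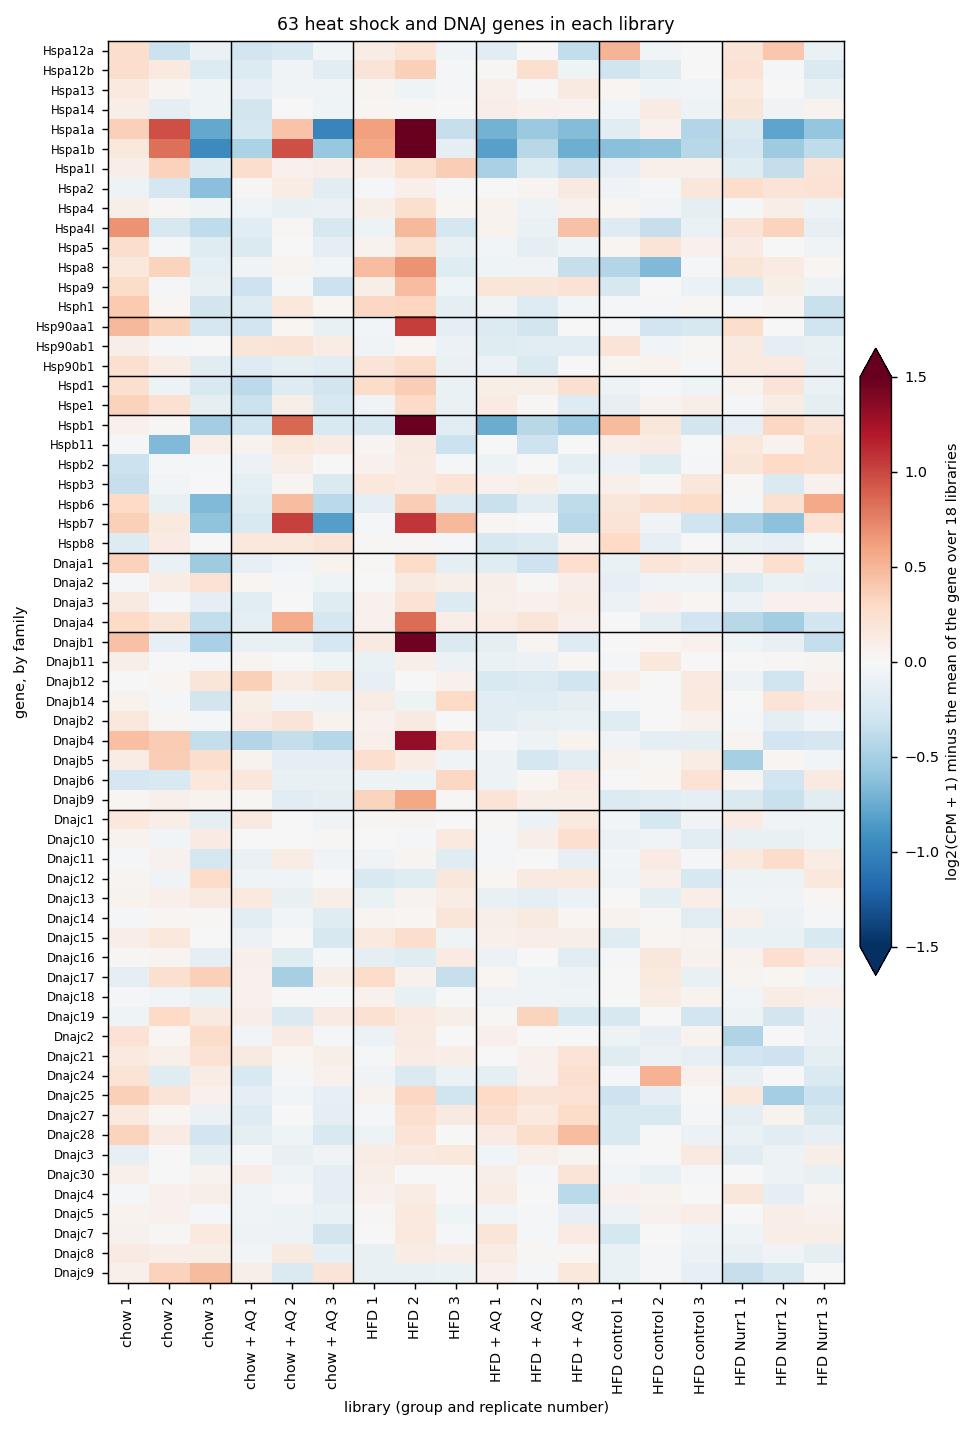
Deviation of log2(CPM + 1) from the mean of each gene over 18 libraries (colour, limited to 1.5 either way) for 63 genes in rows, by family, and libraries in columns, by group. The rows of Hspa1a and Hspa1b hold the strongest colour, in HFD replicate 2, where they reached 84.2 and 92.4 CPM.

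The effect of the diet on wild-type muscle without AQ was examined first. No member passed the threshold in limma, where 0.0479% of all genes tested did. At an unadjusted p under 0.05 there were 6 members (9.52%), against 9.53% of all genes, and neither edgeR nor DESeq2 called any member. The smallest adjusted p belonged to Dnajc9, a histone chaperone with a J domain, at 13.5, 13.4 and 13.5 CPM on HFD and 15.4, 18.9 and 20.7 CPM on chow (log2 fold change -0.41 ± 0.12 SE, limma adjusted p = 0.293). Next came Dnajc3, an inhibitor of the kinase PERK in the ER (0.22 ± 0.07, adjusted p = 0.347), and Hspb3, a muscle partner of HSPB2 (0.29 ± 0.10, adjusted p = 0.399). For each of these 3 genes the libraries of both groups did not overlap, which held for 5 members (7.94%) and for 12.4% of all genes.

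Inducible members lay mostly above 0 with the diet, and less so without HFD replicate 2. Of the 13, 12 had log2 fold changes above 0, with a median of 0.20, and the genes that are not members had a median of -0.0028. Without that library 8 of 13 were above 0 and the median was 0.02. Hspa1a went from 1.25 ± 0.72 (limma adjusted p = 0.595) to -0.05 ± 0.42, Hspa1b from 1.60 ± 0.76 (adjusted p = 0.528) to 0.20 ± 0.43, and Dnajb1 from 0.52 ± 0.29 (adjusted p = 0.589) to 0.02 ± 0.19. Hspb1 went from 0.51 ± 0.36 to -0.06 ± 0.28. Over all 63 genes the median moved from 0.03 to -0.02. Other lists lay above 0 with the diet too: 8 of 9 adipocyte genes (median 1.03), all 8 leukocyte genes (0.32), all 8 fibroblast and matrix genes (0.41), all 4 smooth muscle genes (0.27), 7 of 8 endothelium genes (0.21) and 13 of 16 immediate early genes (0.20). Without HFD replicate 2 the medians of these were 1.02, 0.29, 0.43, 0.22, 0.18 and -0.16. None of these genes was called, and their part in the chaperone values was not tested.

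AQ on HFD was compared with HFD alone. No member passed in limma, again with 0.0479% of all genes called. edgeR called none and DESeq2 3 (4.76%, against 1.14% of all genes in DESeq2). Unadjusted p-values under 0.05 were found for 11 members, all of them lower with AQ (17.5%, against 11.8% of all genes), and for 4 members without HFD replicate 2 (6.35%, against 9.59% of all genes). Libraries did not overlap for 14 members (22.2%), 12 lower and 2 higher with AQ, against 16.3% of all genes. This comparison shares the HFD libraries with that of the diets, so a library that is high in HFD raises the diet effect and lowers the AQ effect together.

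Hspa1l, a constitutive HSP70 gene beside Hspa1a, had the smallest p-value. It was at 35.1, 38.8 and 42.4 CPM on HFD and at 23.0, 28.4 and 25.6 CPM on HFD with AQ, with every AQ library below every HFD library. The log2 fold change was -0.58 ± 0.14 (limma adjusted p = 0.0991, and DESeq2 adjusted p = 0.0203), and between -0.65 and -0.50 without single libraries. Hspa1b (-2.26 ± 0.76, limma adjusted p = 0.236) and Hspa1a (-2.08 ± 0.72, limma adjusted p = 0.249) did not overlap between groups either. Without HFD replicate 2 their log2 fold changes were -0.87 ± 0.43 and -0.78 ± 0.42, and neither passed (limma adjusted p = 0.546 and 0.589). DESeq2 called both, and so did limma without HFD replicate 3 (adjusted p of 0.0369 for Hspa1b and 0.0315 for Hspa1a), when Hspa8 was called as well (adjusted p = 0.0266). That limma fit called 3 members (4.76%) and 1.79% of all genes.

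In the list of 13 inducible members, 12 lay below 0 with AQ on HFD, at a median of -0.44, and without HFD replicate 2 the count was 11 and the median -0.14. Hspb1 stood at -0.92 ± 0.36 with all libraries and -0.36 ± 0.28 without that one, Dnajb4 at -0.57 ± 0.23 and -0.19 ± 0.17, and Hspb7, outside the list, at -0.64 ± 0.37 and -0.36 ± 0.39. Hsph1, the nucleotide exchange factor HSP110, was at -0.26 ± 0.15 and -0.18 ± 0.16. All 7 small heat shock genes (median -0.14) and all 9 DNAJB genes (median -0.23) lay below 0. Without HFD replicate 2, 6 and 8 did so, at medians of -0.14 and -0.15. The 24 DNAJC genes were spread about 0, with 15 above it. None of these genes passed the threshold in limma.

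**Figure D4:**
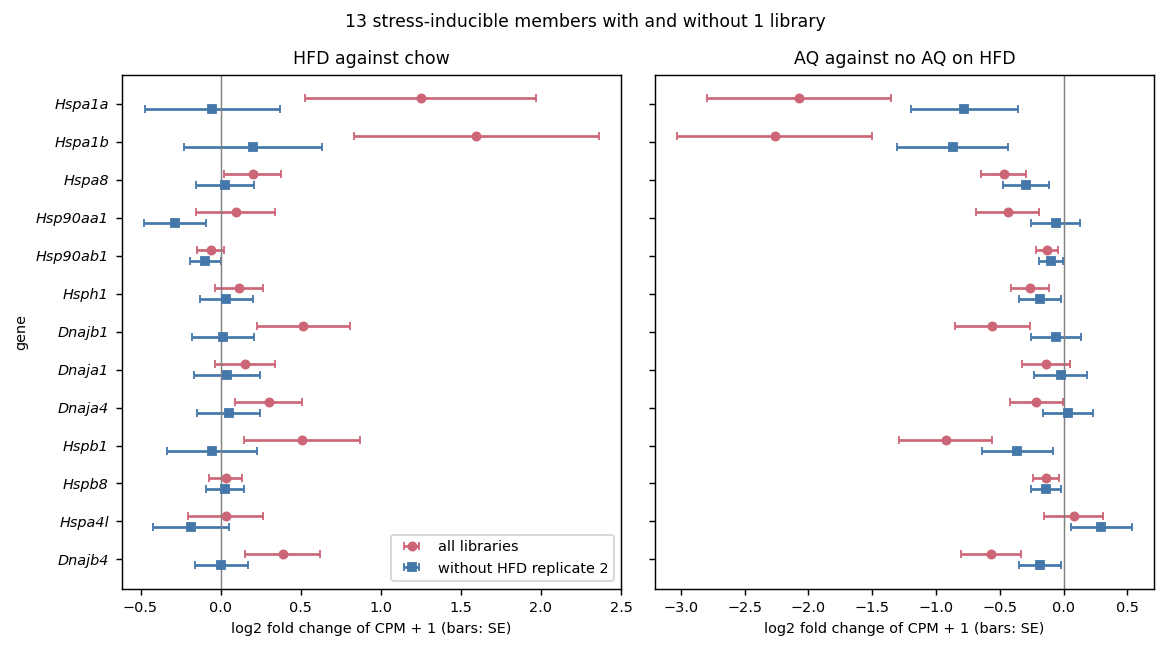
Log2 fold change of CPM + 1 with its SE for 13 stress-inducible members, for HFD against chow (left) and AQ against no AQ on HFD (right), from all libraries (circles) and without HFD replicate 2 (squares). Hspa1a moves from 1.25 to -0.05 on the left and from -2.08 to -0.78 on the right.

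Other gene groups moved with AQ on HFD as well. All 16 immediate early genes lay below 0, at a median of -0.53, and 14 did without HFD replicate 2, at -0.24. Their sums ran from 230.4 to 281 CPM with AQ and from 268 to 811 CPM without. Of the marker lists, 8 of 9 adipocyte genes present (Adrb3 has no row), all 8 leukocyte genes present (Adgre1, Cd3e and Cd79a have none), 7 of 8 fibroblast and matrix genes and all 4 smooth muscle genes (median -0.65) were below 0. Endothelium genes lay the other way, 6 of 8 above 0 with 1 called higher, and sums of 468 to 499 CPM with AQ and 428 to 449 CPM without. Adipocyte sums ranged from 250.7 to 336 CPM with AQ and 359 to 419 CPM without, leukocyte sums from 124 to 144 and 144 to 186 CPM, and matrix sums from 1402 to 1900 and 1757 to 3354 CPM. No gene of the lists that lay below 0 was called. Their part in the chaperone values was not tested, and in whole tissue fewer cells of a type and less RNA per cell cannot be told apart.

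On chow, AQ likewise left more members below 0 than above it, 44 of 63 (median -0.11), where on HFD there were 42 of 63 (median -0.10), or 36 (median -0.04) without HFD replicate 2. No member passed the threshold in limma, edgeR or DESeq2. Of all genes 1.11% were called, and 10 members (15.9%) had an unadjusted p under 0.05, 1 higher and 9 lower, against 15.5% of all genes. Libraries did not overlap for 12 members (19.0%), against 19.8% of all genes. Dnajb5, a DNAJ partner of HSP70, was at 258, 226 and 226 CPM with AQ and at 269.7, 322 and 298 CPM without (log2 fold change -0.33 ± 0.12, limma adjusted p = 0.186), all AQ libraries being the lower ones. Dnajc7, an HSP70 and HSP90 co-chaperone, stood at -0.22 ± 0.08 (limma adjusted p = 0.213), and Hspa2, an HSP70 best known from germ cells, at 0.31 ± 0.12 (adjusted p = 0.242). Dnajb4, whose 3 lowest libraries of all were those on chow with AQ (69.3, 73.8 and 70.4 CPM), stood at -0.57 ± 0.23 (adjusted p = 0.251). All comparisons shared 1 estimate of the spread, so HFD replicate 2 entered the SE of inducible genes here and for the transgene too. The pooled SD of Dnajb4 was 0.34 with that library and 0.21 without it. Fits on only the groups compared, which leave HFD replicate 2 out, called no member for AQ on chow or the transgene (0.107% and 0.778% of all genes).

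All 7 small heat shock genes, counted by symbol and with the low Hspb11 (1.11 to 3.01 CPM), lay above 0 with AQ on chow. On HFD all 7 lay below 0 with AQ. Their median was 0.13 on chow. Part of this rested on chow with AQ replicate 2. Replicates 1, 2 and 3 of that group had 1015, 1584 and 866 CPM of Hspb6, against 1420, 1069 and 728 CPM on chow. For Hspb7 they had 492, 1169.9 and 324 against 734, 634 and 378 CPM, and for Hspb1 25.3, 57.6 and 26.4 against 32.6, 31.6 and 21.4 CPM. Others were more even, such as Hspb8 at 627, 628 and 644 against 494, 614 and 566 CPM. Fold changes of the 7 without that library are not given here. All 8 leukocyte genes (median 0.38) and all 8 endothelium genes (median 0.27, 2 called higher) also lay above 0 with AQ on chow, and their part in the chaperone values was not tested. Of the 24 DNAJC genes 21 were below 0 (median -0.12), as were 9 of the 10 mitochondrial members (median -0.16), while the genes that are not members had a median of -0.01. The difference between the AQ effects on both diets was tested as an interaction. It passed for no member in limma, edgeR or DESeq2, with 0.711% of all genes called and 11 members (17.5%) at an unadjusted p under 0.05, against 14.1% of all genes. Hspa1l came nearest (-0.64 ± 0.20, limma adjusted p = 0.145), followed by Dnajb12, a membrane DNAJ protein of the ER (-0.38 ± 0.13, adjusted p = 0.182), and Dnajc9 (0.45 ± 0.17, adjusted p = 0.230).

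The diets differed most in the mice given AQ, and of the 6 comparisons in limma members passed in this one. On HFD with AQ against chow with AQ 8 of 63 genes (12.7%) were called by limma, against 10.6% of all genes, 4 of them higher and 4 lower (4.89% and 5.68% of all genes). edgeR called 7 members, all of those but Hspa9 (11.1%, against 10.2% of all genes). DESeq2 called the same 8 (12.7%, against 11.2% of all genes). Members of the mitochondrial list (Hspd1, Hspa9 and Dnajc28) made up 3 of the 4 that rose, and Hsp90ab1 was among those that fell. Libraries did not overlap for 23 members (36.5%), against 33.2% of all genes, and 14 members (22.2%) had an unadjusted p under 0.05, against 25.4%. The share of chaperones called was thus near that of the table. The balance of directions depended on the scaling: with each library rescaled to the same sum, 6 members were called, 5 higher and 1 lower, and 833 of all genes were higher and 375 lower, against 613 and 711. Hspa1l (limma adjusted p = 0.0596), Hsp90ab1 (0.115) and Dnajb2 (0.179) were then not called, and Dnajc7 was.

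Hspd1, which encodes HSP60, was at 80.4, 80.3 and 89.4 CPM on HFD with AQ and at 57.4, 65.96 and 62.5 CPM on chow with AQ. It rose by 0.42 ± 0.12 on the log2 scale (limma adjusted p = 0.031). Hspa9 was at 623, 621 and 639 CPM against 440.8, 536 and 440.3 CPM (0.42 ± 0.13, adjusted p = 0.0445). Untreated libraries of both diets ran from 508 to 754 CPM of Hspa9 and from 64.5 to 98.5 CPM of Hspd1. All libraries on HFD with AQ lay within these ranges, and for each gene 2 of the 3 on chow with AQ lay below them. Hspe1, the HSP10 gene beside Hspd1, was at 17.4, 16.1 and 13.9 CPM against 12.5, 16.9 and 13.4 CPM, overlapped, and did not pass (0.14).

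Dnajc28, a little-studied DNAJ gene on the mitochondrial list, rose from 37.8, 39.8 and 35.4 CPM to 45.4, 50.1 and 58.1 CPM (0.43 ± 0.12, limma adjusted p = 0.0344). Dnajc27, which encodes a small GTPase with a J domain, rose from 133, 153 and 138 CPM to 179, 168 and 184 CPM (0.32 ± 0.09, adjusted p = 0.0318). Of the 10 mitochondrial members 8 lay above 0, with a median of 0.17, against -0.0023 for the genes that are not members. Mitochondrial chaperones outside the families, such as the HSP90 relative Trap1 and the nucleotide exchange factor Grpel1, lay above 0 in 7 of 7, at a median of 0.09, and none was called.

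Dnajb12 fell the most firmly of the 8. It was at 46.1, 46.9 and 43.8 CPM on HFD with AQ and at 70.1, 58.9 and 61.9 CPM on chow with AQ, a log2 fold change of -0.47 ± 0.09 (limma adjusted p = 0.00372). Untreated HFD libraries lay at 49.7 to 57.0 CPM and untreated chow libraries at 53.9 to 62.0 CPM, so that the lowest 3 of these 4 groups' libraries were those on HFD with AQ. Hsp90ab1 fell from 1299, 1305 and 1235 CPM to 1003, 1019.6 and 1018 CPM (-0.34 ± 0.08, adjusted p = 0.0181), and untreated libraries lay between, at 1070.5 to 1210.2 CPM. Hspa1l, with the antisense overlap given above, fell from 39.5, 34.2 and 35.1 CPM to the 23.0 to 28.4 CPM listed for AQ on HFD (-0.49 ± 0.14, adjusted p = 0.0333). Dnajb2, a DNAJ protein that shields ubiquitinated clients, fell from 92.5, 97.1 and 88.2 CPM to 75.3, 79.0 and 79.5 CPM (-0.25 ± 0.07, adjusted p = 0.0398).

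Hspb8 lay just outside the threshold at 476, 490 and 586 CPM against 627, 628 and 644 CPM (-0.30 ± 0.10, limma adjusted p = 0.0726), and every library on HFD with AQ was the lower. The small heat shock genes were below 0 in 6 of 7, with none called.

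**Figure D5:**
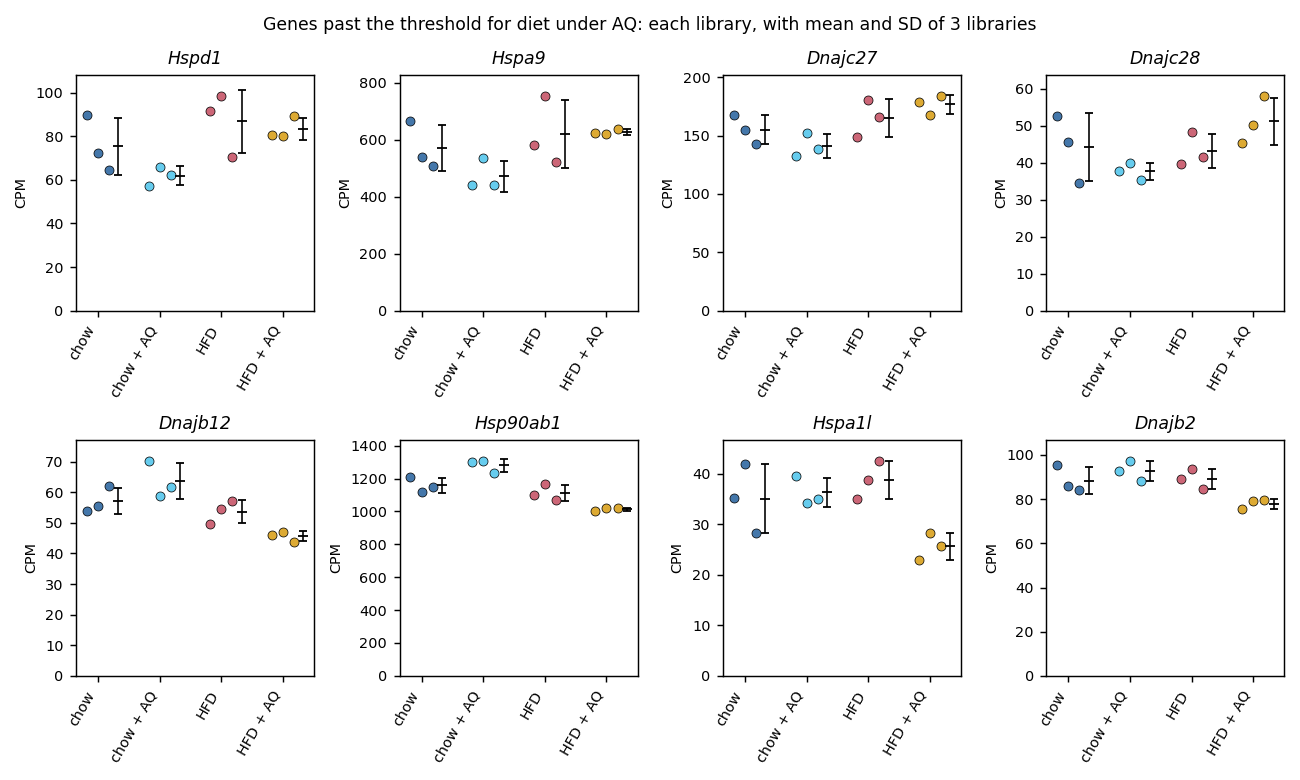
CPM of the 8 genes called between diets under AQ, on linear axes from 0, for the 4 wild-type groups, showing single libraries as points and, beside them, the mean ± SD (n = 3). On HFD with AQ, Hspd1 lies at 80.3 to 89.4 CPM and Dnajb12 at 43.8 to 46.9 CPM, without overlap with chow with AQ.

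The GC content of the genes moved with these calls over the whole table. The median GC of transcripts was 46.9% for genes called higher and 55.1% for those called lower, against 49.8% for all genes tested and 47.4% for the 63 members. The 4 chaperones that rose had 45.9% (Hspa9), 46.1% (Dnajc28), 46.8% (Hspd1) and 49.7% (Dnajc27), and the 4 that fell had 51.0% (Hsp90ab1), 53.2% (Hspa1l), 54.3% (Dnajb12) and 57.3% (Dnajb2). With the GC trend of each library removed, 4 of the 8 remained called, Dnajb12 (-0.41 ± 0.09, limma adjusted p = 0.0124), Hsp90ab1 (-0.31 ± 0.08, adjusted p = 0.0272), Dnajc27 (0.32 ± 0.09, adjusted p = 0.0404) and Hspd1 (0.39 ± 0.12, adjusted p = 0.0474), and 7.92% of all genes were. Dnajc28 (0.38 ± 0.12, adjusted p = 0.0593), Hspa1l (-0.43 ± 0.14, adjusted p = 0.0721) and Hspa9 (0.37 ± 0.13, adjusted p = 0.0829) missed the threshold with folds of like size, and Dnajb2 moved to -0.13 ± 0.08 (adjusted p = 0.364).

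The number of members called also depended on single libraries. It was 2, 4 and 2 without HFD with AQ replicates 1, 2 and 3, and 1, 7 and 2 without chow with AQ replicates 1, 2 and 3. The whole table fell with them, to 833, 920 and 602 genes called and to 645, 1130 and 573, so that members made up 1.59% to 11.1% where 4.58% to 9.03% of all genes were called. Dnajb12 was called in each of those 6 fits and in all 17 alternatives, with limma adjusted p-values from 0.00424 to 0.0262 when single libraries were left out.

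Partners of the chaperones were called in the same comparison, where 4.89% of all genes were called higher and 5.68% lower. Their values with rescaling or with the GC trend removed are not given here. Hsf1, which encodes the main heat shock factor, was at 46.3, 49.8 and 46.8 CPM on HFD with AQ and at 61.0, 60.5 and 65.0 CPM on chow with AQ (-0.38 ± 0.08, limma adjusted p = 0.00447). Bag3, the HSP70 partner of HSPB8 in clearing damaged filaments, was at 152, 148 and 128 CPM against 209, 248 and 199.5 CPM (-0.61 ± 0.14, adjusted p = 0.0111). Among 23 cytosolic co-chaperones and partners 3 fell, the others being Bag6 (-0.44 ± 0.07, adjusted p = 0.00155) and the myosin chaperone gene Unc45b (-0.30 ± 0.07, adjusted p = 0.0123). Of 14 ER chaperone and stress genes present, Calr, Hyou1 and Sil1 fell, by 0.27, 0.27 and 0.59 on the log2 scale, and Ddit3, which encodes the stress factor CHOP, rose from 9.02, 11.2 and 7.32 CPM to 24.0, 19.0 and 18.4 CPM (1.08 ± 0.25, adjusted p = 0.0102). Hspa5, the ER chaperone under the same stress response, was at 186, 174 and 183 CPM against 163, 190.1 and 173 CPM, and its libraries overlapped. Immediate early genes lay below 0 in 14 of 16, with 2 called lower, and leukocyte genes in 8 of 8, with 1 called lower and sums of 124 to 144 CPM against 168 to 242 CPM. Smooth muscle genes lay below 0 in 4 of 4 (1 called lower) and fibroblast and matrix genes in 5 of 8 (2 called lower, 1 higher). Skeletal muscle genes did so in 7 of 11 (1 called higher), adipocyte genes in 6 of 9 and Schwann cell genes in 5 of 6. Endothelium genes lay above 0 in 5 of 8 (1 called higher) and cardiac muscle genes in 2 of 2. The part of these lists in the chaperone values was not tested.

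The transgene was compared with its controls, both on HFD. No member passed in limma, where 0.599% of all genes did. edgeR called none and DESeq2 1 (1.59%, against 1.37% of all genes in DESeq2). At an unadjusted p under 0.05 there were 2 members (3.17%), against 8.95% of all genes, and libraries did not overlap for 4 (6.35%), against 14.3%. The gene nearest the threshold was Hspb2, at 79.4, 86.1 and 84.1 CPM in transgenic muscle and 65.9, 61.4 and 68.8 CPM in controls (0.34 ± 0.08, limma adjusted p = 0.0817, DESeq2 adjusted p = 0.0236). Cryab, whose exons overlap it on the other strand, was at 706, 781 and 789 CPM against 828, 681 and 676 CPM (0.06 ± 0.27). Hspa8 was at 187, 179 and 168 CPM against 121, 104 and 163 CPM, with no overlap (0.49 ± 0.18, limma adjusted p = 0.363), and Dnajb5 at -0.23 ± 0.12 (adjusted p = 0.597).

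Inducible members showed no common direction with the transgene, 5 of 13 lying above 0 at a median of -0.05. All 63 genes had a median of -0.01. All 16 immediate early genes lay below 0 and all 8 leukocyte genes above 0, and limma called none of either list. All 6 Schwann cell genes (median -0.37), 9 of 11 skeletal muscle genes (-0.15), 2 of 2 cardiac muscle genes and 6 of 9 adipocyte genes also lay below 0. Above 0 were 5 of 8 endothelium genes, 3 of 4 smooth muscle genes and 4 of 8 fibroblast and matrix genes, and none of these lists had a call. Immediate early sums were 195.9 to 278 CPM in transgenic and 292 to 478 CPM in control libraries. Leukocyte sums were 187 to 238 and 148 to 259 CPM, and the part of these lists in the chaperone values was not tested. Hspa1a (2.00 to 3.47 against 2.84 to 4.45 CPM) and Fos (2.73 to 8.68 against 7.02 to 26.2 CPM) overlapped between the groups.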

How the data were processed

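The authors deposited 1 table of CPM-like values per gene and library. TopHat2 2.0.12, edgeR and the builds GRCm38 and mm10 are named in the submitters' processing notes. The columns sum to between 929993 and 1071538, so the signal the authors deposited is CPM after a further scaling per library. Divided by a factor per library, all of them (100% within 0.001 reads) are whole reads, and those recovered reads were used for edgeR 4.0.16 and DESeq2 1.42.0. How reads were counted, and with what strand setting, is not stated in the labels.

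Tests used limma 3.58.1 (R 4.3.3; two-sided, eBayes with a trend) on log2(CPM + 1), which understates changes of low genes. All 6 groups entered 1 fit with 12 residual degrees of freedom. A gene needed 1 CPM or more in 3 or more libraries, which left 12524, and the Benjamini-Hochberg adjustment ran over those. Exon length, GC content and overlaps came from GENCODE release 21 (mouse, GRCm38). The script was tested on simulated reads. Alternatives were pseudocounts of 0.25 and 4, filters, rescaling, no trend, fits on the compared groups alone, a replicate block, edgeR, DESeq2, GC removal (loess, span 0.3) and leaving out single libraries.

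The members and lists were chosen with earlier results of these data known. Named are all called members, the 3 of smallest p where none was called, the 10 of highest CPM per kb and of largest SD, the steadiest, and a list of inducible and partner genes. Other members and partners were named after their values were seen.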

Additional observations from a re-analysis of the deposited data

How the results depend on the processing

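The count of members called was 0 for diet, AQ on chow and the interaction under every alternative run. For AQ on HFD it became 3 with DESeq2 (4.76%, against 1.14% of all genes). It ran from 0 to 3 without single libraries, and was 3 without HFD replicate 3 (4.76%, against 1.79% of all genes). For diet under AQ it became 4 without a trend (1 higher, 3 lower), or 6.35% against 9.25% of all genes. It was 4 with GC removed (2 and 2), or 6.35% against 7.92%, and 6 with rescaling (5 and 1), or 9.52% against 9.62%. It rose to 11 in the fit with only the groups compared (6 higher, 5 lower), or 17.5% against 14.4%. Without single libraries it ran from 1 to 7. For the transgene it became 1 (Hspb2, 1.59%) with rescaling, with DESeq2 and with GC removed, where 0.804%, 1.37% and 0.634% of all genes were called. Without HFD replicate 2 the diet log2 fold changes of Hspa1a and Hspb1 turned to -0.0507 and -0.0556, and over all leave-one-out fits they ran from -0.0507 to 2.14 and from -0.0556 to 0.804. Rescaling to equal sums moved the median of all genes by at most 0.08 on the log2 scale.

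Whole-table counts moved too. In DESeq2 47, 143, 280 and 229 genes were called for diet, AQ on HFD, AQ on chow and the interaction, and 171 for the transgene, against 6, 6, 139, 89 and 75 in limma. Without a trend 2, 52 and 31 were called for diet, AQ on chow and the interaction, with rescaling 3, 43 and 32, and with GC removed 19 for AQ on chow and 18 for the interaction. Fits with only the groups compared called 2, 1, 13 and 1749 for diet, AQ on HFD, AQ on chow and diet under AQ. They called 62 for the interaction and 95 for the transgene.

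Replicate numbers were not treated as pairs, and with 3 libraries per group the correlations below cannot exclude pairing. Correlations of same-numbered deviations were -0.0532, 0.069 and 0.306 for diet and -0.0467, 0.0658 and 0.0533 for diet under AQ, and no comparison had all of them above 0.1, nor did every library correlate best with its own number. With the replicate block 8 members were called for diet under AQ and 0 in the other comparisons, and 12, 49, 120, 1418, 107 and 87 genes in all for diet, AQ on HFD, AQ on chow, diet under AQ, the interaction and the transgene. Members near 2 CPM rest on few reads, and small differences among them are not detectable at this depth.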
